A study of Rattus norvegicus with 36 samples.

Results

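In the rat pineal gland, 114 genes were higher at night than at day and higher in culture both after norepinephrine and after a cyclic AMP analog, and these night genes are described here. They were chosen from the measured values. The level of a gene in a library was its CPM, the read-pairs counted on the gene divided by those counted on all genes and scaled to 1000000, and a group was given the median of its 3 libraries. Every ratio used for the choice was a log2 ratio of 2 group medians after 0.5 CPM was added to each. A gene was taken when its night/day log2 ratio was at least 2 (4-fold) in both Control and Sham glands, its Control night level was at least 1 CPM, and its log2 ratio to untreated cultures was at least 1 (2-fold) with norepinephrine and with dibutyryl cyclic AMP. Of the 29516 genes listed, 24811 had a read-pair in at least 1 library. The night criteria alone were met by 176 genes, and 116 of these also met both culture criteria. The rule left out 2 of the 116 by identifier, which gives 114 members.

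Pineal glands of Sprague-Dawley rats were taken at mid-day (ZT7, 7 h after lights on) or midnight (ZT19), at 40 days of age. Control rats were left unoperated, and the other rats were operated on at postnatal day 5 with the ganglia exposed. Sham rats had nothing further done. In SCGX both superior cervical ganglia were removed, and in DCN (decentralization) the ganglia stayed in place without their central input. Male and female pups were divided among the Control, Sham, SCGX and DCN rats. Each of these 8 groups had 3 libraries, each from a pool of glands, so a replicate is a pool. The sexes within a pool are not given. In the second experiment, glands of female rats of 2 to 3 months of age were cultured for 48 h and then left untreated (Untreated) or treated for 6 h with 1 µM norepinephrine (NE) or 500 µM dibutyryl cyclic AMP (DBcAMP), again with 3 pooled libraries each. The remaining 3 libraries were a pineal day pool, a pineal night pool and a mixed-tissue pool of brain regions, retina, pituitary and peripheral organs taken at day. The rule used Control, Sham and the cultures, so the DCN, SCGX and pooled libraries are independent of it.

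Norepinephrine is the transmitter of the sympathetic fibres that run from the superior cervical ganglia to the pineal gland. In the dark it is released onto pinealocytes, where β-adrenergic receptors activate adenylyl cyclase and α-adrenergic receptors strengthen that response, and the rise in cyclic AMP activates protein kinase A and the transcription factor CREB. This pathway drives the nightly synthesis of melatonin. DBcAMP enters cells and acts in place of cyclic AMP, so it stimulates the pathway below the receptors.

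The files list genes by Ensembl identifier, and 0 identifiers were found in the gene table used here, so the members are described by their measured values and lengths, and 4 are given by identifier. Markers of the pinealocyte and of other cell types, the genes of the adrenergic pathway and all sequences were for the same reason not analysed here. The counted read-pairs of a library ranged from 12985072 to 18504240 in vivo, from 12556861 to 18524435 in culture, and from 28836161 to 38574186 for the pools. DCN day replicate 1 and Sham night replicate 3 stood apart in some members, among them those lowest in the night pool relative to mixed tissue, as described at the end. In bulk RNA, fewer cells of a type and less RNA per cell cannot be told apart.

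The members together took a small share of the counted read-pairs by day and a several-fold larger one at night. In Control the share was 0.442%, 0.469% and 0.475% in the day libraries and 3.08%, 3.61% and 3.81% in the night libraries. In Sham it was between 0.476% and 0.505% at day and between 3.36% and 4.12% at night. In culture it was 0.570% to 0.612% in Untreated, 2.48% to 2.66% after NE and 2.58% to 2.74% after DBcAMP. These differences were required by the choice of the genes and are given as a description. The share was concentrated: in Control night 1 member held 17.9% of the members' summed CPM and 10 members held 63.0%.

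**Figure D1:**
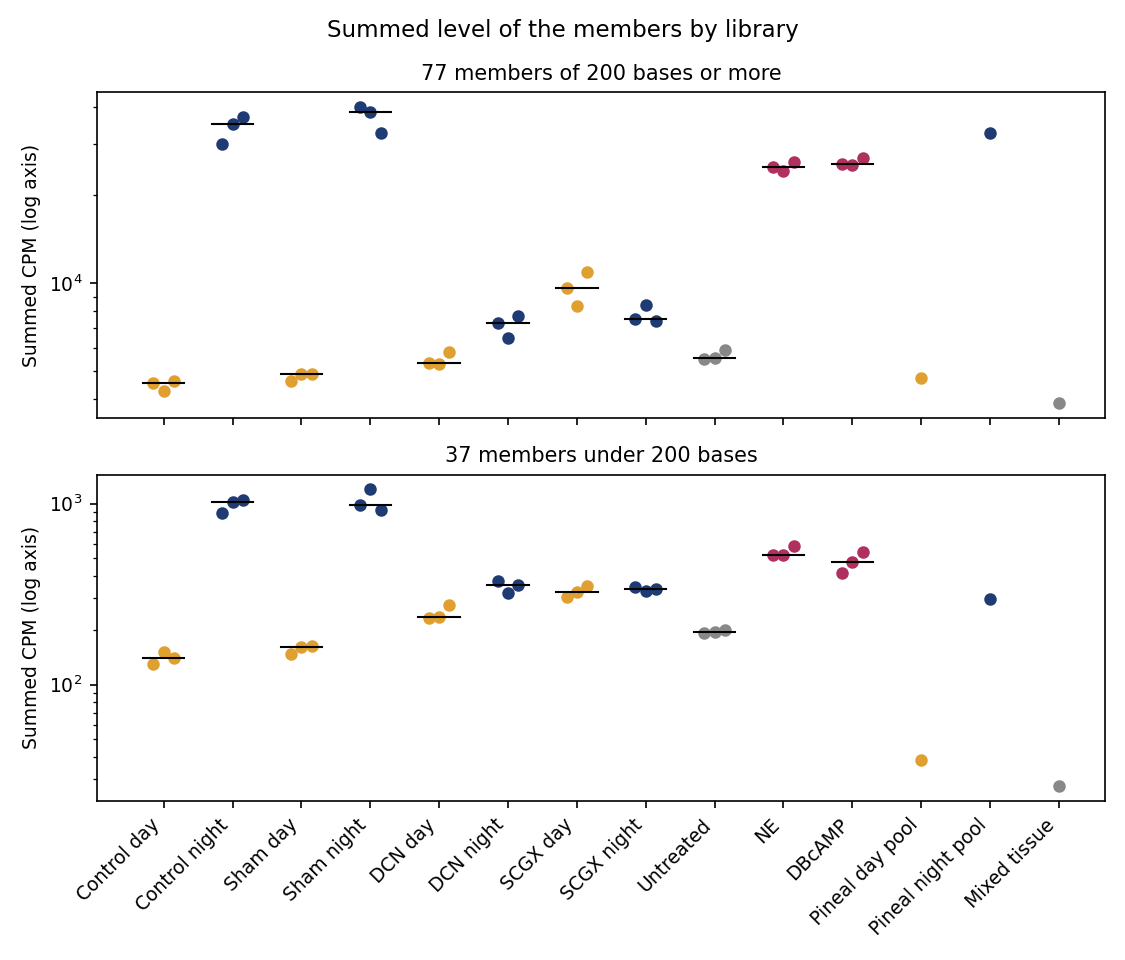
Summed CPM (log axis) of the 77 members of 200 bases or more and of the 37 shorter members in each of the 36 libraries. Points are libraries, in yellow at day, in blue at night, in red with NE or DBcAMP and in grey for Untreated and mixed tissue, and the black line is the median of 3 libraries; the DCN and SCGX libraries lie between the day and night libraries of Control in both panels.

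By the rule, all 114 members passed each of the 4 ratios. Among genes with a mean level of at least 1 CPM in the groups compared, 1.73% were 4-fold higher at night in Control, 1.63% in Sham, 2.78% were 2-fold higher with NE and 4.15% with DBcAMP. The median log2 ratio of the members was 2.81 in Control (2.01 to 6.12), 2.74 in Sham (2.00 to 6.67), 1.80 with NE (1.15 to 5.75) and 1.72 with DBcAMP (1.01 to 5.39). The culture treatment raised the ratio above that of the Control night in 7 members with NE and in 10 with DBcAMP. The level reached with NE was at or above the Control night level in 22 members, and that with DBcAMP in 28. The cultured glands came from older, female rats and had no nerve supply, so these levels are set side by side only.

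Membership was decided by small differences at the edges. The lowest members had log2 ratios of 2.01, 2.03 and 2.05 in Control, and the highest of the 17 genes that failed only there had 1.96, 1.96 and 1.93. In Sham the values were 2.00, 2.01 and 2.05 inside and 1.98, 1.97 and 1.96 outside, where 19 genes failed. With NE they were 1.15, 1.16 and 1.18 inside and 0.99, 0.98 and 0.91 outside, where 5 genes failed, and with DBcAMP 1.01, 1.02 and 1.05 inside and 0.99, 0.96 and 0.96 outside, where 18 failed. The lowest Control night level of a member was 2.13 CPM. With 0.5 CPM added, a 4-fold night/day ratio already requires a night level above 1 CPM. The level criterion could therefore not leave out any gene alone.

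The members fell into a group of short genes and a group of long ones, with no length between 160 and 315 bases. There were 37 members of 72 to 160 bases, 33 of them of 70 to 100 bases, and 77 members of 315 to 7069 bases with a median of 2463. Short genes made up 355 of the 13186 genes with a Control night level of at least 1 CPM, and 10.4% of them were members, against 0.600% of the 12831 genes of 200 bases or more. In the class of 70 to 100 bases 33 of 176 genes, or 18.8%, were members. The split at 200 bases was chosen after the lengths were seen, and no test of these shares was made. Whether the short members lie together in the genome or inside other transcripts was not analysed here, so they may not be independent of each other. The files do not say what kind of RNA a gene makes. In the RefSeq table of rat miRNA hairpins the 419 hairpins had lengths of 59 to 141 bases, with 66.3% of them between 70 and 100 bases, but other small RNA genes have such lengths too and no identifier could be matched.

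**Figure D2:**
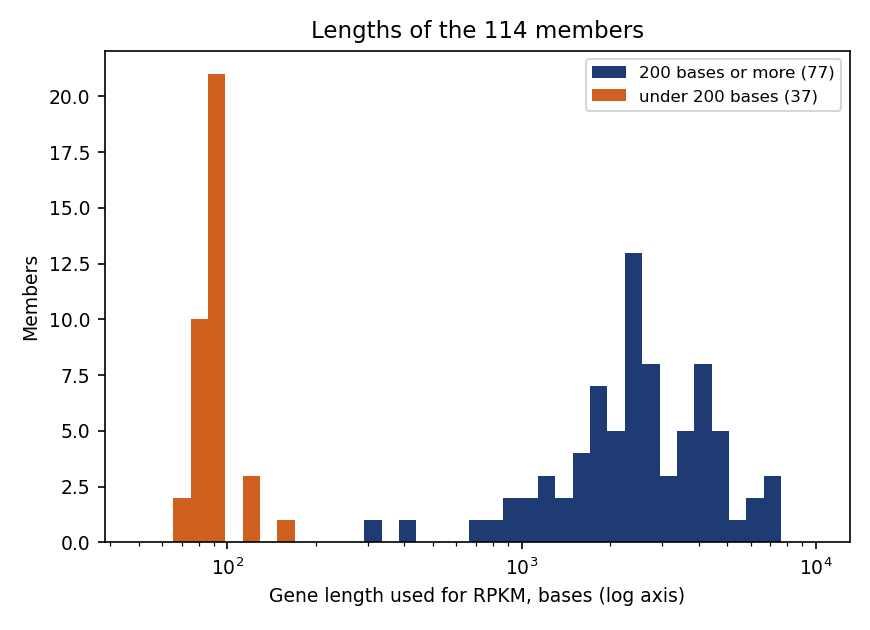
Number of members by gene length in bases (log axis), with the 37 members under 200 bases in orange and the 77 longer members in blue. The short members form a narrow peak between 72 and 160 bases, and the long ones spread from 315 to 7069 bases.

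The short members held little of the total. Their summed level was 130.1, 139.7 and 151.5 CPM in the Control day libraries and 885, 1017 and 1046 CPM in the Control night libraries. The long members summed to between 4270 and 4612 CPM at day and between 29955 and 37042 CPM at night. Per length the order was the reverse: the median Control night level was 268 RPKM (CPM divided by the gene length in kilobases) for the short and 56.2 RPKM for the long members. Pairs that only partly overlap a gene were counted, which can raise the RPKM of a very short gene. How far this entered the difference was not tested. The log2 night/day ratios of the short members in Control were between 2.05 and 3.19, a narrower range than the 2.01 to 6.12 of the long ones. Across the 24 in vivo libraries the median Pearson correlation of log2 CPM was 0.96 over the 666 pairs of short members, 0.89 over the 2926 pairs of long members and 0.85 over pairs of 1 short and 1 long member. These libraries include the night and day groups that the rule used. Across the 12 DCN and SCGX libraries alone, which the rule did not use, the medians were 0.60, 0.35 and 0.23.

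The pineal day and night pools, which were not used to choose the members, showed the same direction for every member. The night pool was higher than the day pool in 114 of 114 members, by at least 2-fold in 110 and by at least 4-fold in 86. Of 13343 genes with a mean of at least 1 CPM in these libraries, 1.33% were at least 4-fold higher in the night pool. Of the members, 105 were among the 13343, and all 86 were among these 105. Shares of all genes that were higher, or at least 2-fold higher, are not given here. The median log2 ratio over the 114 members was 2.66, with values between 0.25 and 6.17, beside -0.19 over the 13343 genes. The share of read-pairs held by the members was 0.479% in the day pool (95% Wilson interval 0.476 to 0.481%, counting error only) and 3.31% in the night pool (3.30 to 3.31%). With 1 library each, this difference has no replicate check. The summed level of the short members was lower in these pools than in the Control libraries of the same time, which were sequenced separately. It was 38.4 CPM in the day pool and 297 CPM in the night pool. In the day pool 35 of the 37 were below their Control day level, against 25 of the 77 long members. The median log2 ratio of night to day pool was nevertheless 2.48 for the short and 2.68 for the long members.

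In glands deprived of their input, most members stayed far below their night level. The DCN night median was a log2 difference of -2.18 from Control night in the median member and the SCGX night median -2.02. In the DCN glands 33 members had a night level below their Control day level and 80 had one between Control day and Control night. In SCGX these counts were 26 and 87, and in each operation 1 member exceeded its Control night level. The members' share of the read-pairs was between 0.552% and 0.608% in DCN day, between 0.679% and 0.807% in DCN night, between 0.870% and 1.13% in SCGX day and between 0.776% and 0.872% in SCGX night. The day and night libraries of DCN did not overlap in this share, while those of SCGX did at 0.870% and 0.872%. All of these libraries lay above the Control day libraries and below the Control night libraries. These comparisons with Control rest on groups that the rule used and are given without a test.

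The night/day difference within DCN did not pass the test in any member. Of the 114 members, 109 had a mean normalized count of at least 5 and were tested, and 0 had an adjusted p-value under 0.05 (edgeR's quasi-likelihood test, Benjamini-Hochberg adjusted over the 15928 genes tested, of which 0.0% were called). An unadjusted p-value under 0.05 was found in 46 members and in 8.98% of all genes, and DESeq2's Wald test called 8 members, all higher at night, and 0.659% of all genes. The fitted log2 night/day difference was positive in 89 and negative in 20 of the tested members, with a median of 0.38 beside -0.01 over all genes. All 3 night libraries lay above all 3 day libraries in 41 of the 114 members and below them in 6, where the shares of all tested genes were 5.88% and 9.27%. The short members are set beside the long ones here, with no test between them. Of the 37 short members, 37 had a positive difference, with a median of 0.51, and 26 had night libraries above all day libraries. Of the 77 long members, 15 did, and the median over the 72 tested was 0.25. The summed level of the short members was 233, 237 and 277 CPM in DCN day and 322, 355 and 374 CPM in DCN night. Without DCN day replicate 1, 0 members were called, 97 had a positive difference and the median was 0.37. The spread between replicate libraries, as the common coefficient of variation of the fit, was 20.1% for DCN night/day and 9.23% for SCGX night/day. The counts of calls in DCN and SCGX are therefore not a comparison of the size of their night/day differences.

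In the SCGX glands 10 long members fell at night and 1 rose (edgeR, adjusted p-value under 0.05, 110 members tested). Of the 15551 genes tested 1.85% were called, 1.02% higher and 0.83% lower at night. An unadjusted p-value under 0.05 was found in 44 members and in 18.1% of all genes. The 11 called members were all of 200 bases or more. The short members had lower levels, with a median of 6.78 CPM in SCGX day against 31.5 CPM for the long ones. The share of all short genes called is not given here. Night libraries lay below all day libraries in 26 of the 114 members and above them in 8, beside 7.81% and 15.2% of all genes. The fitted difference was negative in 54 of the 73 long members tested, with a median of -0.44, and its median over the 37 short members was 0.07 with 25 positive. The summed level of the short members was 304, 324 and 351 CPM in SCGX day and 331, 336 and 348 CPM in SCGX night, so these groups overlapped. The count of calls rested on single libraries: it was 3, 24 and 1 without SCGX day replicate 1, 2 or 3 and 4, 5 and 2 without SCGX night replicate 1, 2 or 3. With DESeq2 it was 26, of which 23 were lower at night, beside 3.76% of all genes. For the fits without 1 library the share of all genes called is not given here. A change in calling over all genes can therefore not be told from one in the members.

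**Figure D3:**
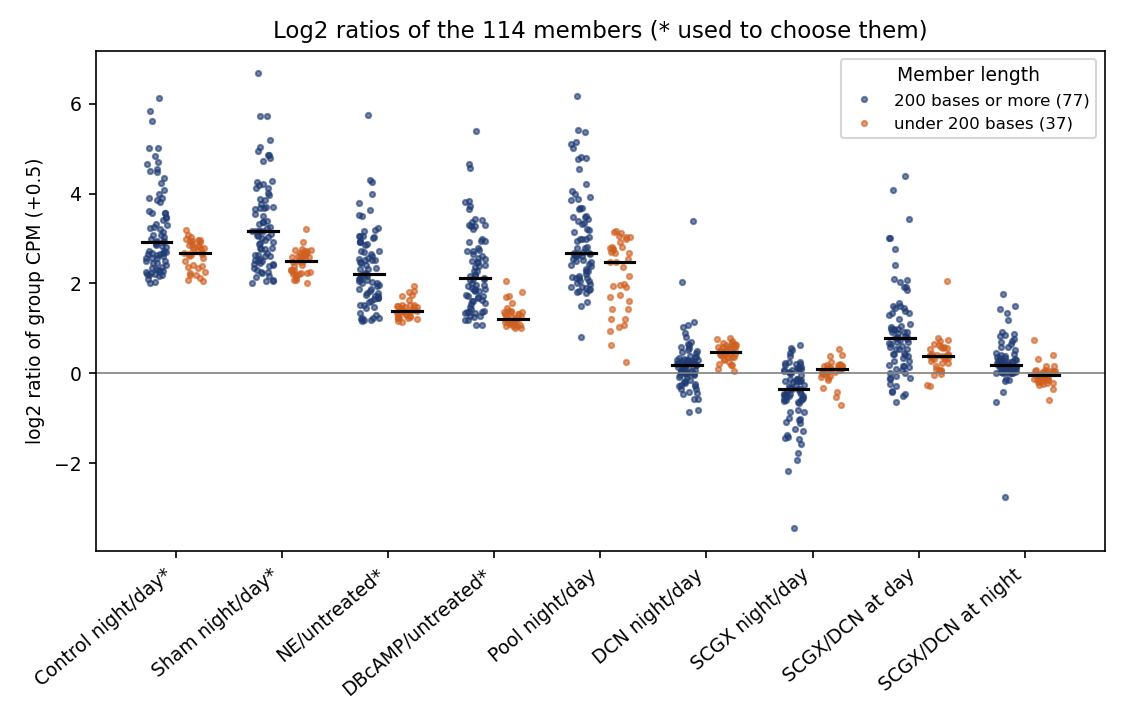
Log2 ratio of group levels (0.5 CPM added to each) for the 114 members in 9 comparisons, with long members in blue, short members in orange and black lines at the medians. The 4 comparisons marked by an asterisk chose the members; the night/day ratios of DCN and SCGX lie around 0, with medians of 0.28 and -0.13 over all members.

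Whether the night/day difference itself differed between the operations was tested in the 12 DCN and SCGX libraries. None of the 110 members tested had an adjusted p-value under 0.05 in edgeR's quasi-likelihood test, that is 0 calls, and 0.0% of the 15779 genes were called. An unadjusted p-value under 0.05 was found in 58 members and in 10.6% of all genes, and DESeq2 called 6 members and 0.273% of all genes. The difference, SCGX minus DCN, was negative in 95 of the 110 members, with a median of -0.54 on the log2 scale beside 0.01 over all genes. It was negative in 35 of 37 short and in 60 of 73 long members. Without DCN day replicate 1 it was negative in 96 members with a median of -0.51, and without SCGX day replicate 2 there were 2 calls. The share of all genes called in that fit is not given here.

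At mid-day 20 of the 110 members tested were called between SCGX and DCN, all 20 higher in SCGX and all long (edgeR). The lower levels of the short members limit their calls here too. Of the 15902 genes tested 0.761% were called, 0.591% higher and 0.17% lower. An unadjusted p-value under 0.05 was found in 73 members and in 19.7% of all genes. DESeq2 called 49 members and 4.79% of all genes, and at an adjusted p-value under 0.001 edgeR called 0 members. The 3 SCGX libraries lay above the 3 DCN libraries in 64 of the 114 members and below them in 3, beside 7.58% and 20.5% of all genes. The median log2 difference was 0.59 over the members, 0.82 over the long and 0.45 over the short ones, and -0.02 over all genes. The call was sensitive to single libraries, with 0 calls without DCN day replicate 2 or SCGX day replicate 3, 1 without SCGX day replicate 1, 23 without SCGX day replicate 2, 12 without DCN day replicate 3 and 35 without DCN day replicate 1, while the median stayed between 0.50 and 0.69 over the 6 fits. The shares of all genes called in these 6 fits are not given here, so the changes may not be particular to the members. At midnight 0 of 109 members tested were called by edgeR, with 0.0% of the 15579 genes called. An unadjusted p-value under 0.05 was found in 15 members and in 3.8% of all genes, and DESeq2 called 3 members and 0.0578% of all genes. The median difference at midnight was 0.11, with 73 of 109 differences positive. All 3 SCGX libraries lay above the DCN libraries in 15 members and below them in 1, beside 4.08% and 5.11% of all genes. The mid-day comparison uses the SCGX day libraries that also enter the SCGX night/day comparison, so these results are not independent.

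The 4 members given by identifier are long ones. ENSRNOG00000011598 and ENSRNOG00000003977 had the largest value of the smallest of the 4 ratios used by the rule. ENSRNOG00000001189 and ENSRNOG00000033502 had the largest decreases at night among the members called in SCGX, apart from ENSRNOG00000003977, which was called there as well. This choice was made after the values were seen, since names were lacking.

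ENSRNOG00000011598, of 1990 bases, was counted at 1.11, 0.840 and 0.418 CPM in Control day and 92.6, 99.0 and 77.9 CPM in Control night, and at 1.25, 0.662 and 0.968 CPM in Sham day and 180.5, 114 and 149 CPM in Sham night. In culture it was at 0.350, 0.609 and 0.324 CPM in Untreated, 32.7, 49.0 and 45.1 CPM with NE and 42.8, 35.2 and 26.3 CPM with DBcAMP. The lowest of the raised libraries was thus far above the highest of the others, and the NE and DBcAMP libraries overlapped. In the operated glands it stayed under 3 CPM, at 0.126, 0 and 0.259 CPM in DCN day, 0.140, 0.132 and 0.131 CPM in DCN night, 1.21, 0.428 and 2.94 CPM in SCGX day and 0.308, 0.381 and 0.149 CPM in SCGX night. These are between 0 and 4 read-pairs per library in DCN, too few for a night/day test there. Its SCGX night/day difference did not pass (adjusted p = 0.13, edgeR), with all 3 night libraries below all 3 day libraries. The night pool held 102.8 CPM, the day pool 0.936 CPM and mixed tissue 17.8 CPM.

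ENSRNOG00000003977, of 1936 bases, was at 7.27, 7.05 and 10.2 CPM in Control day and 274, 249.5 and 182 CPM in Control night. Sham libraries held 7.99, 6.49 and 6.57 CPM at day and 358, 468 and 374 CPM at night. The culture exceeded the gland in vivo: Untreated libraries held 29.1, 32.3 and 35.3 CPM, NE libraries 534, 524 and 518 CPM and DBcAMP libraries 780.0, 749 and 834 CPM. Every DBcAMP library was above every NE library, a log2 difference of NE to DBcAMP of -0.63. In DCN it was at 17.2, 9.68 and 8.47 CPM at day and 11.4, 11.003 and 15.5 CPM at night, where day and night libraries overlapped. In SCGX it was at 109, 53.4 and 135 CPM at day and 31.7, 19.3 and 33.4 CPM at night. The decrease at night in SCGX was -1.87 on the log2 scale (standard error 0.32, adjusted p = 0.028, edgeR), and at mid-day SCGX was higher than DCN by 3.15 (standard error 0.40, adjusted p = 0.029). The decrease was no longer called without SCGX day replicate 1 or 3 or SCGX night replicate 2 or 3, and the mid-day call was lost without DCN day replicate 2 or 3 or SCGX day replicate 1 or 3, with values of -1.79, -1.58, -1.65 and -2.005 for the first and 3.02, 2.97, 3.08 and 2.85 for the second.

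ENSRNOG00000001189, of 4093 bases, was at 13.0, 13.8 and 13.2 CPM in Control day and 386, 445 and 558 CPM in Control night, and at 15.2, 11.98 and 10.6 CPM and 772, 658 and 572 CPM in Sham. Untreated libraries held 60.9, 65.5 and 63.2 CPM, NE libraries 724, 723 and 747 CPM and DBcAMP libraries 691, 608 and 694 CPM. The NE and DBcAMP values were close, with a log2 difference of 0.09. In DCN it was at 33.0, 23.8 and 15.1 CPM at day and 27.8, 14.9 and 26.7 CPM at night, again overlapping. In SCGX it was at 196, 74.5 and 210.0 CPM at day and 58.1, 50.9 and 44.3 CPM at night, a difference of -1.69 (standard error 0.33, adjusted p = 0.043, edgeR). At mid-day it was higher in SCGX than in DCN by 2.82 (standard error 0.43, adjusted p = 0.040). The decrease was called only with all SCGX libraries or without SCGX day replicate 2, with values of -1.52 and -1.44 without SCGX day replicate 1 or 3 and -1.78, -1.69 and -1.59 without SCGX night replicate 1, 2 or 3, and with the replicate block it was -1.57 and not called. The mid-day call was lost without DCN day replicate 2 or 3 or SCGX day replicate 1 or 3, at 2.80, 2.59, 2.66 and 2.57. For both ENSRNOG00000003977 and ENSRNOG00000001189 the SCGX day libraries were above the Control and Sham day libraries and below the Control and Sham night libraries, and SCGX day replicate 2 was the lowest of the 3.

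ENSRNOG00000033502, of 1308 bases, was at 0.852, 8.66 and 13.3 CPM in Control day, where replicate 1 was far below the others, and at 149, 239.6 and 362 CPM in Control night. It was at 9.24, 8.93 and 8.43 CPM in Sham day and 388, 303 and 345 CPM in Sham night. The treated cultures stayed below the Control and Sham night libraries, with 2.73, 2.44 and 2.00 CPM in Untreated, 45.3, 23.7 and 35.9 CPM with NE and 16.1, 22.0 and 26.7 CPM with DBcAMP. In DCN it was at 1.64, 0.880 and 1.29 CPM at day and 0.837, 0.725 and 1.51 CPM at night, and in SCGX at 3.05, 2.85 and 5.74 CPM at day and 1.39, 1.14 and 1.26 CPM at night. The SCGX decrease was -1.66 (standard error 0.33, adjusted p = 0.044, edgeR), and its DCN difference of -0.28 had an adjusted p of 0.87. The decrease in SCGX was likewise not called without any 1 library other than SCGX day replicate 2, at -1.80 and -1.25 without SCGX day replicate 1 or 3 and -1.71, -1.58 and -1.65 without SCGX night replicate 1, 2 or 3, nor with the replicate block, at -1.61. Its SCGX day libraries were all below its Sham day libraries. Mixed tissue held 0.544 CPM, the night pool 165 CPM and the day pool 3.36 CPM.

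**Figure D4:**
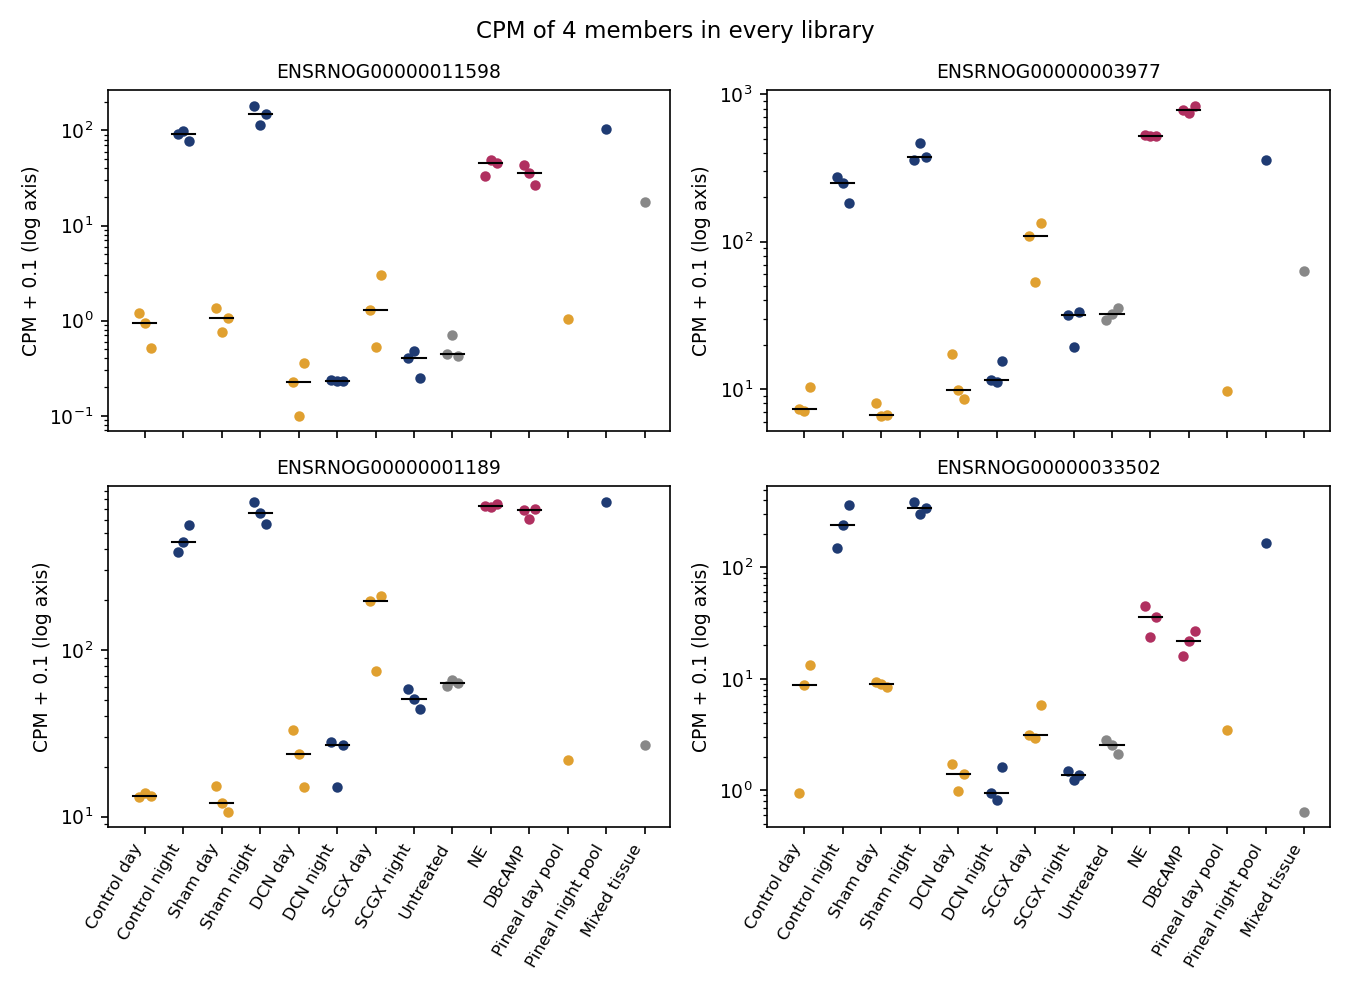
CPM plus 0.1 (log axis) of the 4 members given by identifier in each of the 36 libraries, coloured as in the plot of summed CPM, with a black line at the median of 3. In the upper right and lower left panels the SCGX day libraries lie between the Control day and night libraries, and in all 4 panels the SCGX night libraries lie below the SCGX day libraries.

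The responses to NE and DBcAMP were compared with each other, at 1 dose and 1 time each. NE acts through receptors and DBcAMP in place of the second messenger, and the rule used both against untreated cultures. Genes raised by only 1 of them were left out by the rule and the libraries are the same, so the difference between the treatments is not independent of the choice and is given as a description. Of 114 members, all tested, 23 were called, 11 higher and 12 lower with NE than with DBcAMP (edgeR), while 6.07% of 15029 genes were called, 1.61% higher and 4.46% lower. With library size as the only scaling the split was 13 higher and 10 lower. An unadjusted p-value under 0.05 was found in 43 members and in 20.1% of all genes. All NE libraries lay above all DBcAMP libraries in 30 members and below them in 14, beside 17.9% and 9.76% of all genes. The median log2 difference was 0.09 over the members and 0.01 over all genes. All 23 called members were long, and 0 of the 37 short members were called, with 4 of them at an unadjusted p-value under 0.05. The short members had lower levels, with a median of 11.9 CPM with NE against 105 CPM for the long ones. The share of all short genes called is not given here, so the 0 is not a trait of the short members. The short members summed to 520.0, 524 and 585 CPM with NE and to 415, 477 and 540 CPM with DBcAMP, with overlap.

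**Figure D5:**
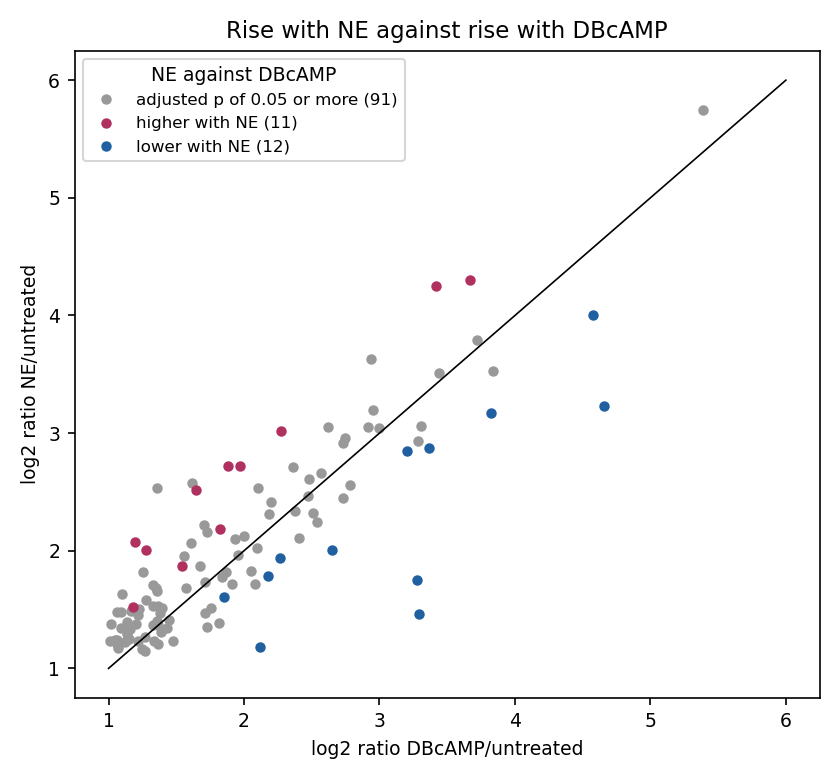
Log2 ratio to Untreated with NE against that with DBcAMP for the 114 members, with the line of equal response. The 11 members called higher and the 12 called lower with NE lie on either side of the line, and 91 were not called.

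The members that differed most are given without a name. The lowest with NE relative to DBcAMP held 1.78, 2.53 and 2.21 CPM with NE and 7.80, 9.15 and 11.5 CPM with DBcAMP, a log2 difference of -2.18. The next held 8.96, 9.44 and 6.92 CPM with NE and 26.8, 24.1 and 28.3 CPM with DBcAMP, a difference of -1.69. The third lowest held 158, 133 and 216 CPM against 427, 423 and 326 CPM, a difference of -1.26. In all 3 the DBcAMP libraries lay above all NE libraries. In the other direction the highest held 3.95, 2.00 and 2.07 CPM with NE and 0.717, 1.05 and 1.06 CPM with DBcAMP, a difference of 1.46. The second held 36.2, 20.0 and 25.8 CPM against 7.72, 13.9 and 15.1 CPM, a difference of 1.12.

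The pineal pools were also set against mixed tissue. Both ratios share the mixed-tissue library, so any difference between them repeats the night/day ratio of the pools given above. The members were chosen for a night rise, so more of them above mixed tissue at night than by day is a description and no separate result. The night pool was at least 4-fold above mixed tissue in 78 members, beside 4.02% of 15084 genes, and the median log2 ratio over the members was 2.56. The day pool was at least 4-fold above mixed tissue in 9 members, beside 3.24% of 15161 genes, with a median of 0.11. In 53 members the day pool was below mixed tissue. The members' share in mixed tissue was 0.391% (95% Wilson interval 0.389 to 0.393%), below the 0.479% of the day pool. The highest ratio of night pool to mixed tissue was 9.58 and the lowest -4.36 on the log2 scale, and 7 members were below mixed tissue in the night pool.

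The 2 members lowest in the night pool relative to mixed tissue were also high in single libraries. One held 239 CPM in mixed tissue and 11.9 CPM in the night pool, and it was at 62.9 CPM in DCN day replicate 1 against 0.542 and 0.388 CPM in the other DCN day libraries, and at 65.9 CPM in Sham night replicate 3 against 24.8 and 20.5 CPM. The other held 131 CPM in mixed tissue and 5.90 CPM in the night pool, was at 21.8 CPM in DCN day replicate 1 against 1.22 and 0.840 CPM, and at 27.4 CPM in Sham night replicate 3 against 6.39 and 11.8 CPM. Their DCN night/day differences of -5.66 and -2.93 had adjusted p-values of 0.53 and 0.56 (edgeR) and rest on that library. DCN day replicate 1 was also above the other DCN day libraries in further members. One had 829 read-pairs there against 271 and 291, and another had 388 against 137 and 125. The member highest in mixed tissue, at 342 CPM, had 11739 read-pairs there against 9833 and 14562. Its DCN day median of 739 CPM was above its mixed-tissue level, so it cannot serve as a check here. Whether RNA from other tissue had a part in these values was not tested.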

How the data were processed

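Stranded total RNA was sequenced in 36 libraries. The authors aligned read-pairs with STAR (2.3.1y per the submitters' processing notes) to rn4, counted them per Ensembl gene with QoRTs under HTSeq's union rule, and deposited whole read-pair counts without normalization. They also deposited RPKM, used here only to recover gene lengths. Pairs on more than 1 gene were not counted, and the union rule counts a pair that only partly overlaps a gene, so pairs reaching past a short gene are included.

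CPM was computed from the counts over the library total. Tests used edgeR 4.0.16 in R 4.3.3 with TMM normalization, the quasi-likelihood test and Benjamini-Hochberg adjustment over all genes whose mean normalized count over the fitted libraries reached 5, only the groups compared entering each fit. A call was an adjusted p-value under 0.05; the standard error is the log2 fold change over the root of the F statistic. Drawing and summaries used Python 3.11.15. The scripts were tested on simulated data. Alternatives were DESeq2 1.42.0, scaling by median-of-ratios factors or by library size alone, the count filter removed or set to 10 read-pairs in each library, the replicate number as a block, an adjusted p-value under 0.001 and leaving out each library. Wilson intervals cover counting error only. Within a group, replicate pools differed by more than sampling noise.

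The members, lists and tests were chosen with earlier results of these data known. The rule for naming genes took the members with the strongest ratios, those called and those at the extremes; without names, 2 identifiers for rises and 2 for decreases are printed. The 16 gene and marker lists, and with them 4 planned comparisons of the adrenergic pathway, were not analysed here.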

Additional observations from a re-analysis of the deposited data

How the results depend on the processing

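The 114 members became 118 with group means, 93 with a pseudocount of 1, 147 with TMM-scaled totals, and between 105 and 123 without 1 library. The counts of members 4-fold higher in the night pool stayed within 1.5 times. With DESeq2 the calls were 8 for DCN night/day, 26 for SCGX night/day, 6 for the difference of the 2, 49 for SCGX against DCN at day and 3 at night. Without a count filter they were 30, 33 and 35 for SCGX night/day, SCGX against DCN at day and NE against DBcAMP, and at an adjusted p-value under 0.001 they were 0, 0 and 7. Leaving out 1 library gave between 1 and 24 calls for SCGX night/day, 0 and 35 for SCGX against DCN at day, 0 and 2 for the difference of the night/day differences, 16 and 24 for NE against DBcAMP, and 0 in DCN night/day and in SCGX against DCN at night. The replicate block gave 7 calls for SCGX night/day, 30 for SCGX against DCN at day and 15 for NE against DBcAMP, and 0 for the other 3. Shares of all genes called are given above for the main edgeR fits and for DESeq2 only. Under the other settings a change in calling over all genes cannot be told from one in the members. Same-numbered samples did not deviate together in all pairs (correlations between -0.22 and 0.18), so the numbers were not taken as pairs; only between DCN day and SCGX day did all 3 samples match their own number best. The medians over the members kept their sign under these alternatives, while single members that were not called could change theirs. For the 4 identifiers 22 calls were lost and 2 gained when a library was left out, and 7 were lost and 7 gained under the other alternatives. With library size only, the median of all genes moved to -0.10 for SCGX against DCN at day. Replicates of 3, the spread between them and low counts in DCN and SCGX limit what could be called. The pathway comparisons planned for Control, Sham, NE and DBcAMP were not run, since no identifier could be paired with a symbol.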

Other observations

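The untreated cultures were set beside the day glands in vivo. The Untreated level lay below Control day in 38 members, between Control day and Control night in 74 and above Control night in 2, and its median log2 ratio to Control day was 0.33, with single members between -3.15 and 2.52. For the 37 short members the median was 0.44, and 6 of them were below Control day. The operated glands at mid-day showed a split by length as well: the DCN day level of the short members had a median log2 ratio of 0.83 to Control day, with 35 of 37 above it, while the long members had a median of 0.01. In SCGX day the medians were 1.18 and 0.68. Sham day had medians of 0.18 and 0.04. These ratios use the Control day libraries of the rule and were not tested.

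Across the 77 long members, the log2 ratio of SCGX to DCN at day and the Control night/day ratio had a Pearson r of 0.54 and a Spearman rho of 0.34. For the SCGX night/day ratio these values were -0.455 and -0.27, and for the DCN night/day ratio 0.34 and 0.14. Genes share the libraries and are not independent replicates, so these are descriptions.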
